A study of Homo sapiens with 6 samples.

Results

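The expression of 8 genes known from the placenta and its trophoblast cells was examined in flasks of NCI-H446, a line grown from a human small cell lung cancer, as the labels name it. The genes were CGA, PGF, TFPI2, PAPPA, PAPPA2, ADAM12, CYP19A1 and GCM1, read from every probe of the array that names one of them and no other gene. This gave 14 of 31741 probes and 8 of 18336 genes. The 6 samples were 3 drug flasks (drug 1, 3 and 4), given a chemotherapy drug that the labels do not name, and 3 control flasks (control 2, 5 and 6), given 15 µl of DMSO, a common drug solvent. The sources give no exposure time or solvent for the drug flasks. They give no value for the dose, beyond that a single concentration was shared. All flasks carry the same cell line. Some source names give other DMSO volumes and other cell line numbers, and the sample characteristics were followed instead. Each flask was measured on its own single-colour Phalanx OneArray, a glass array of long oligonucleotide probes. The genes were put together with the drug and control values of these arrays known, so their differences are described here and not tested.

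The placenta is lined by trophoblast cells, which fuse into a multinucleated layer, the syncytiotrophoblast, that faces the maternal blood and secretes hormones and proteases. Chorionic gonadotropin, its best known hormone, is a pair of chains: the alpha chain encoded by CGA, shared with luteinizing, follicle-stimulating and thyroid-stimulating hormone, and a beta chain that gives each hormone its identity. PAPPA, PAPPA2 and ADAM12 are metalloproteases that cleave binding proteins of the insulin-like growth factors, PGF is a ligand of the VEGF family, TFPI2 is a Kunitz-type inhibitor of serine proteases, CYP19A1 is aromatase, which makes oestrogens, and GCM1 is a transcription factor of trophoblast fusion. Several of these genes, CGA among them, are also known to be made outside the placenta by tumours.

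Of the 8 genes, CGA, PGF and TFPI2 were higher and PAPPA was lower in the drug flasks, and PAPPA2, ADAM12, CYP19A1 and GCM1 differed little on their brighter probe. In the fit across all probes, 4 of the 14 probes were higher and 2 lower at an adjusted p below 0.05 (limma, Benjamini-Hochberg), where 31.5% of all probes were called. On 8 of the 14 probes no drug array fell within the range of the control arrays or the reverse, as was the case on 43.3% of all probes. Read from the brighter probe, 3 of the 8 genes were higher (17.6% of all genes) and 1 lower (17.5%), and of all genes 47.0% had no overlap between groups. With median centring 2326 genes were higher and 3265 lower, so that 41.6% of the calls were higher, against 50.1% here. These counts are descriptions of genes chosen on this contrast. The median log2 fold change of the 8 genes was -0.018, against 0.0075 for all genes, with large differences of both signs beside differences near 0. In bulk RNA of this kind, fewer cells that express a gene and less RNA of it per cell cannot be told apart.

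**Figure D1:**
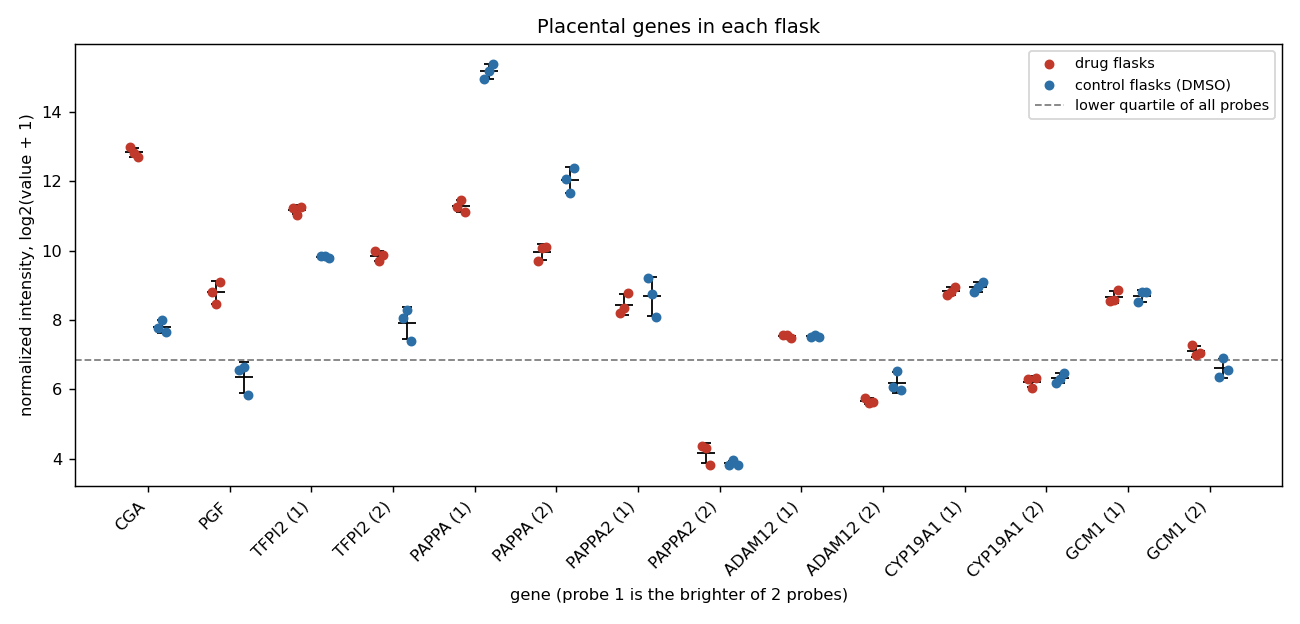
Normalized intensity of the 14 probes, log2(value + 1), in each of the 3 drug flasks (red) and 3 control flasks (blue), with the mean and SD in black. CGA, PGF and both TFPI2 probes lie higher in the drug flasks and both PAPPA probes lower, with no overlap between groups, and the dashed line is the lower quartile of all probes.

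The sequences just before the start of the 4 genes that differed most are shown because the results turn on these genes. They are the 250 bases before the RefSeq start on GRCh38.p14, read along the gene's own strand, at chr6:87095107-87095356 (minus strand) for CGA, chr14:74955765-74956014 (minus) for PGF, chr7:93890754-93891003 (minus) for TFPI2 and chr9:116153541-116153790 (plus) for PAPPA. Capitals mark the cyclic AMP response element TGACGTCA, the site read by CREB-type factors, and the TATA box letters TATAAA.
CGA: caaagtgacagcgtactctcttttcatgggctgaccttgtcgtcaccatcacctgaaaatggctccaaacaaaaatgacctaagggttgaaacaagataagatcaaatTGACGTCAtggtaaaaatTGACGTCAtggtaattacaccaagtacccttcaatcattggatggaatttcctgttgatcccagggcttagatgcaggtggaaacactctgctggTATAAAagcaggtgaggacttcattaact
PGF: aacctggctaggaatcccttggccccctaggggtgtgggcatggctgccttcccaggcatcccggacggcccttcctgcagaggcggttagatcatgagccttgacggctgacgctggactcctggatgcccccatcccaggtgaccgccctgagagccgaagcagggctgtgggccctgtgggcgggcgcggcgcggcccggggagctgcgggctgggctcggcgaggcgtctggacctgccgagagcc
TFPI2: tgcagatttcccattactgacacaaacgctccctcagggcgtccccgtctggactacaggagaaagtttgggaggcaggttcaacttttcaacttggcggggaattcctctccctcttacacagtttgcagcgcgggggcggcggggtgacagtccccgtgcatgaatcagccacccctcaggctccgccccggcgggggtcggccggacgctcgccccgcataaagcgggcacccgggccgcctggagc
PAPPA: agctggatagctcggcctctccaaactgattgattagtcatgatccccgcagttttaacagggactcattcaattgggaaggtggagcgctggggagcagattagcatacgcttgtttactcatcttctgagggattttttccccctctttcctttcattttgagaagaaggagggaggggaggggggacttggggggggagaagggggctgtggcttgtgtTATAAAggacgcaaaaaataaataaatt

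The CGA window held TGACGTCA at 2 places, at -142 to -135 and at -124 to -117 from the start, and TATAAA at -29 to -24. At least 1 TGACGTCA was found in 1.77% of 27303 promoter windows of the same length, on either strand, and 2 or more in 16 of them, or 0.0586%. None of the windows of the other 7 genes held these letters. The shorter core TGACG, which lies within TGACGTCA on each strand, occurred at 5 places in the CGA window, 4 of them inside the 2 full elements. It occurred at 2 places in the PGF window. Of all windows, 21.7% hold it at 1 place or more and 4.92% at 2 or more. The PAPPA window shared the TATAAA letters with CGA, at -28 to -23, as did 11.1% of all windows. The PGF and TFPI2 windows held the GC box letters GGGCGG at 2 places each, as did 42.3% of windows at 1 place or more, and TFPI2 also held the AP-1 letters TGANTCA at -87 to -81 (6.6% of windows). The GCM-type letters ATGCGGGT, present in 0.187% of windows, were in none of the 8. Letter matches are descriptions of these windows, and the RefSeq start need not be the start used in these cells.

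CGA had the largest difference of the 8 genes. Its single probe had a deposited intensity of 7693, 6809 and 6816 in drug 1, 3 and 4, and of 212, 217 and 197 in control 2, 5 and 6. The 3 drug flasks were close to each other and far above all control flasks. After normalization the means were 12.84 ± 0.14 in the drug flasks and 7.81 ± 0.19 in the control flasks (log2, SD, n = 3 each), a log2 fold change of 5.03 (SE 0.145), or 32.7-fold. By log2 fold change this probe ranked 7 from the top of all 31741 probes, and 22 of 18336 genes, or 0.120%, were called and at least 16-fold higher.

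PGF, the placental growth factor, had intensities of 446, 361 and 614 in drug 1, 3 and 4, against 80.0, 71.4 and 69.6 in control 2, 5 and 6. All drug flasks lay above all control flasks, with drug 4 the highest. The log2 fold change was 2.45 (SE 0.261), or 5.45-fold. The control mean lay under the lower quartile of all probes, called dim below, so the fold depends on the constant added before taking logs, and it was 3.76 with 50 added in place of 1.

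TFPI2, an inhibitor of plasmin and of the tissue factor and factor VIIa complex that trophoblast secretes into its matrix, was higher on both of its probes. The brighter probe had 2304, 1970 and 2589 in the drug flasks, against 999, 876 and 830.5 in the control flasks, a log2 fold change of 1.35 (SE 0.12), or 2.55-fold. The other probe had 988, 806 and 1017 in the drug flasks, against 267, 271 and 169.6 in the control flasks, a log2 fold change of 1.93 (SE 0.236), or 3.80-fold. On each probe the groups did not overlap, and control 6 was the lowest flask.

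PAPPA, pregnancy-associated plasma protein A, a secreted protease of IGFBP4, was lower in the drug flasks on both of its probes. That probe had 2353, 2658 and 2325 in drug 1, 3 and 4, against 33081, 39260.1 and 40770.3 in control 2, 5 and 6. The log2 fold change was -3.89 (SE 0.16), 14.8-fold lower, and it ranked 21 from the bottom of all probes. The second probe had 808, 1036 and 1198 in the drug flasks, against 4652, 3299 and 5064 in the control flasks, a log2 fold change of -2.07 (SE 0.214), 4.20-fold lower. Both probes separated the groups without overlap, and they differed from each other in the size of the fall by more than the sum of their standard errors.

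PAPPA2, a related protease that cleaves IGFBP5, did not separate the groups. Its brighter probe had 298, 332 and 494 in the drug flasks, against 628, 386 and 259 in the control flasks, with a log2 fold change of -0.24 and a 95% interval from -0.94 to 0.45. Its other probe was dim in both groups and below 0 as deposited in control 2 and control 5, so no fold is given for it. ADAM12, which cleaves IGFBP3 and IGFBP5 and sheds heparin-binding EGF, had 198, 204 and 200.2 in the drug flasks on its brighter probe, against 176, 155 and 183 in the control flasks. The deposited values did not overlap, but after normalization the log2 fold change was -0.0024 with a 95% interval from -0.26 to 0.25 and the groups overlapped. Its other probe, dim in both groups, gave -0.53 (interval from -0.92 to -0.13) and was not called.

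CYP19A1 had 421, 457 and 550.1 in the drug flasks on its brighter probe, against 465, 446 and 515 in the control flasks. The groups overlapped, and the log2 fold change was -0.12 (95% interval from -0.43 to 0.19). The dimmer probe gave -0.095, with an interval from -0.42 to 0.23. GCM1 had 375, 387 and 527 in the drug flasks on its brighter probe, against 375, 399 and 419 in the control flasks, a log2 fold change of -0.034 (interval from -0.39 to 0.32). Its second probe, dim in the control flasks, had 161, 139 and 147 in the drug flasks, against 66.5, 85.3 and 101 in the control flasks. On that probe the groups did not overlap, the log2 fold change was 0.49 (interval from 0.091 to 0.90) and it was not called, so the probes of GCM1 did not give the same picture.

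**Figure D2:**
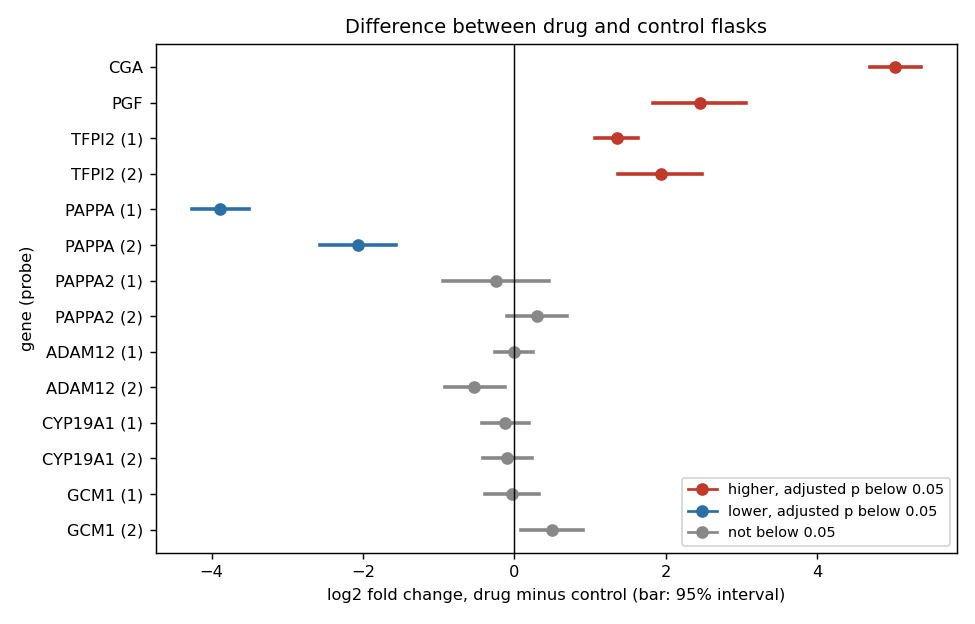
Log2 fold change of the drug over the control flasks for the 14 probes, with 95% intervals from the limma fit on 3 flasks per group. CGA stands furthest to the right at 5.03 and the brighter PAPPA probe furthest to the left at -3.89, while the probes of CYP19A1 and PAPPA2 span 0.

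The arrays had median intensities from 421 to 476 in the drug flasks and from 376 to 439 in the control flasks. Deviations from the group means went together in control 2 and drug 4 (r = 0.411 over 23991 probes). They did so less in control 5 with drug 1 (0.307), control 5 with drug 3 (0.186) and control 6 with drug 1 (0.177). The other pairs across groups were negative, most so control 2 with drug 1 (-0.418) and control 5 with drug 4 (-0.374). Deviations within a group sum to 0, so these pairs are not independent. Without control 2 and drug 4 the log2 fold changes were 5.07 for CGA, 2.40 for PGF, 1.32 and 1.99 for TFPI2, and -3.91 and -2.13 for PAPPA. Of 12 measured markers of small cell lung cancer and neuroendocrine cells, 4 rose and 1 fell, where 35.1% of all genes were called. NCAM1 rose by 5.08 (1.99 and 1.61 on its other probes), ENO2 by 1.09, SYP by 1.06 and CHGB by 0.86 on the log2 scale. YAP1, listed as a marker of small cell lung cancer and not of neuroendocrine cells, fell by 2.48. The summed intensity of the 12 ran from 117661 to 122018 in the drug flasks and from 102320 to 113607 in the control flasks. Most of it came from UCHL1. Without UCHL1 it ran from 23434 to 28313 in the drug flasks and from 28568 to 31362 in the control flasks. YAP1 had 3553, 3247 and 3379 in the drug flasks, against 19863, 20063 and 19107 in the control flasks. Its fall exceeded the difference between the sums without UCHL1. NEUROD1, a lineage factor of this cancer, was dim in both groups. Of 9 fibroblast and endothelial markers, 1, COL1A1, fell, and it made the difference between the sums (from 8853 to 9733 in the drug flasks and from 31041 to 33228 in the control flasks). The other 8 summed to between 2734 and 3173 in the drug flasks and between 2683 and 3174 in the control flasks. Of 5 blood cell markers, 1, CD14, rose, and it made most of the sums (from 3244 to 3666 in the drug flasks and from 2039 to 2302 in the control flasks). The part of these markers in the differences of the placental genes was not tested.

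The question whether other genes of the same pathways changed was asked with 9 gene lists, which leave out the 8 genes. Of 183 measured genes on these lists, 30 rose and 24 fell at an adjusted p below 0.05, 29.5% in all, where 35.1% of all genes were called. Below, each gene is read from its brightest probe and p-values are adjusted over all probes (limma, Benjamini-Hochberg).

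**Figure D3:**
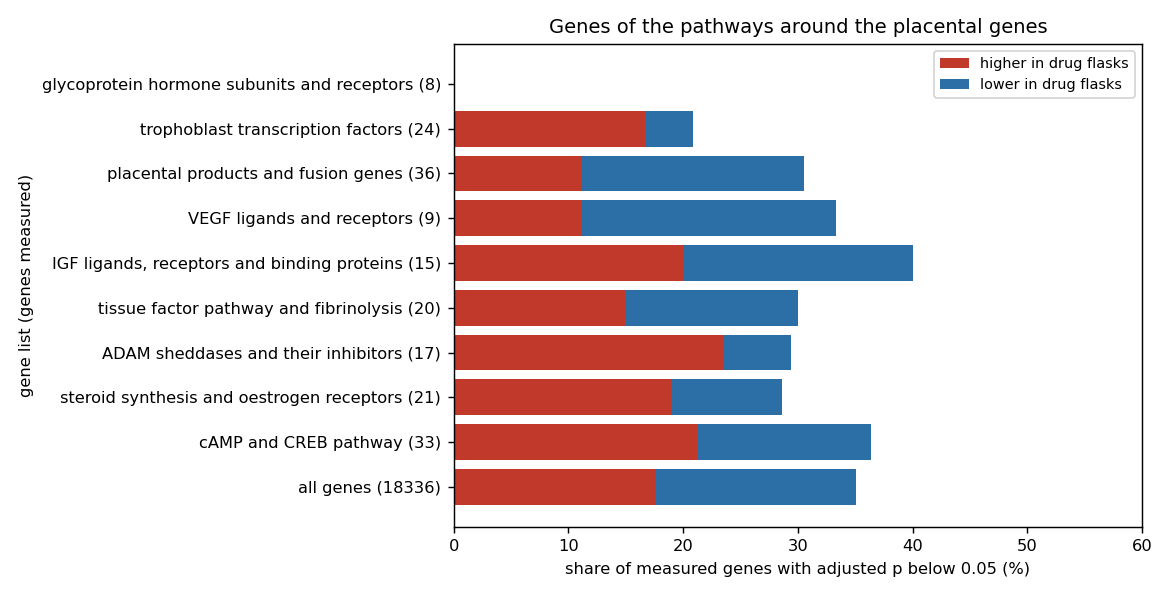
Share of the measured genes of each list with an adjusted p below 0.05, in percent, higher (red) or lower (blue) in the drug flasks, with the number of genes measured in brackets and all 18336 genes in the bottom bar. The glycoprotein hormone list had none, and the other lists had from 20.8% to 40.0%, against 35.1% of all genes.

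No measured partner of the alpha chain was called higher beside CGA. Of 8 measured glycoprotein hormone subunits and receptors, 0 were called by limma, where 35.1% of all genes were called. However, 5 of the 8 were dim in both groups, which limits what can be read from them. Unadjusted, 1 had a p below 0.05, and the median log2 fold change was -0.14. LHB, the beta chain of luteinizing hormone, had 684, 719 and 746 in the drug flasks, against 791, 628 and 848 in the control flasks, a log2 fold change of -0.13 (SE 0.139, adjusted p = 0.586). FSHB, the beta chain of follicle-stimulating hormone, gave -0.52 (SE 0.172, adjusted p = 0.0592) and lower values in every drug flask than in every control flask. It was called without control 2, at -0.69 (adjusted p = 0.0122), while its other 2 probes gave -0.024 and 0.14. TSHB, the beta chain of thyroid-stimulating hormone, was dim in both groups, at -0.24 (adjusted p = 0.281).

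The beta chains of chorionic gonadotropin come from near-identical genes, and 8 probes name no genes but these. Only 1 of the 8 names a single gene, under the older symbol CGB, so the probes are given as a family. By limma 0 of the 8 were called, where 31.5% of all probes were called, and 0 had an unadjusted p below 0.05. As 7 of the 8 name several of these genes, they are not separate readings. The probe named CGB had 192, 147 and 174 in the drug flasks, against 139, 139 and 210.2 in the control flasks, a log2 fold change of -0.19 (SE 0.187, adjusted p = 0.524). Over all 8 probes the log2 fold change ran from -0.89 to 0.083, and the lowest came from a probe on which control 5 alone was high, at 917. The difference of 5.03 in CGA therefore stood beside no called difference in any beta chain probe.

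The IGF system, on which PAPPA, PAPPA2 and ADAM12 act, had 6 of 15 genes called, 3 up and 3 down (40.0%, against 35.1% of all genes), with a median log2 fold change of 0.039. IGFBP4, the main substrate of PAPPA, fell, with 2956, 3005 and 2853 in the drug flasks, against 7599, 5796 and 7631 in the control flasks (log2 fold change -1.18, SE 0.164, adjusted p = 0.00139). STC1, a stanniocalcin that inhibits PAPPA, rose, with 526, 399.8 and 511 in the drug flasks, against 85.5, 72.5 and 127.5 in the control flasks. Its log2 fold change was 2.08 (SE 0.157, adjusted p = 0.000106), and its fold of 4.22 became 3.22 with 50 added, since it was dim in the control flasks. STC2, the other stanniocalcin, gave -0.48 (SE 0.168, adjusted p = 0.0704), with all drug flasks below all control flasks after normalization. It was called without control 6, at -0.64 (adjusted p = 0.0133), and with 50 added, dim probes left out or the variance trend, and its other probe gave -0.32. IGFBP2, a carrier of IGF, rose 8.93-fold, with 4807, 4669 and 4277 in the drug flasks, against 476, 521 and 517 in the control flasks (log2 fold change 3.16, SE 0.145, adjusted p = 1.92e-05).

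IGFBP5, a substrate of PAPPA2, gave -0.038 (SE 0.147, adjusted p = 0.893) on its brighter probe and 0.69 (adjusted p = 0.0461) on the other. IRS1, a docking protein of the IGF and insulin receptors, rose by 0.79 (SE 0.237, adjusted p = 0.0402), but its other probe, dim in both groups, gave 0.19. The call of IRS1 was lost without any of control 5, control 6, drug 1, drug 3 or drug 4 (adjusted p from 0.0622 to 0.12). The same call was lost with median centring and with the values as deposited, where 5 and 4 genes of the list were called. The count of called genes was 3 without control 5, drug 1, drug 3 or drug 4, and INSR and IGFBP6 were lost with IRS1 in each of these. Without control 6 it was 7, with these 3 lost and STC2, IGF1, IGF2R and IRS2 gained. Of the 2 stanniocalcins, both inhibitors of PAPPA, STC1 was called higher, and STC2 had a negative difference that was not called in the main fit.

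Around PGF, 3 of 9 VEGF ligands and receptors were called, 1 up and 2 down (33.3%, against 35.1% of all genes). The median log2 fold change of the list was -0.17. NRP1, a neuropilin that binds PGF and VEGF, fell, with 342, 326 and 284 in the drug flasks, against 3884, 5243 and 5448 in the control flasks (log2 fold change -3.97, SE 0.211, adjusted p = 2.91e-05). Its other probes gave -1.25 and -1.82. FLT1, the main receptor of PGF, varied within groups, with 1778, 1001 and 2553 in the drug flasks, against 2135, 486 and 909 in the control flasks. Its log2 fold change was 0.73 (SE 0.5, adjusted p = 0.346), and of its 6 probes 1, dim in both groups, was called, at 0.54. KDR, the main VEGF receptor of endothelium, rose by 1.37 (SE 0.142, adjusted p = 0.000392), and VEGFC, a ligand of lymphatic vessels, changed by -2.18 (SE 0.137, adjusted p = 5.35e-05). Without control 6, 5 genes of the list were called, VEGFA and VEGFB being added. In the main fit VEGFB gave -0.37 (adjusted p = 0.174) on its brighter probe, but its other probe was called, at -0.85 (adjusted p = 0.03).

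Around TFPI2, 6 of 20 genes of the tissue factor pathway and of fibrinolysis were called, 3 up and 3 down (2 and 3 with median centring). That share was 30.0%, against 35.1% of all genes, and the median log2 fold change was 0.078. TFPI, the related inhibitor of tissue factor, had 372, 332 and 395 in the drug flasks on its brighter probe, against 984, 1022 and 1062 in the control flasks. It fell on that probe, with a log2 fold change of -1.56 (SE 0.132, adjusted p = 0.000167), but its other probe, dim in the control flasks, was called in the opposite direction, at 0.73 (adjusted p = 0.0109), so no direction is given for the gene as a whole. Without TFPI, 3 of 19 genes of the list rose and 2 fell. Tissue factor itself, F3, gave 0.10 (SE 0.151, adjusted p = 0.687). PLAUR, the urokinase receptor, changed by -2.22 (SE 0.16, adjusted p = 8.83e-05) and by -1.01 on its other probe. F2RL1, a protease-activated receptor, rose by 2.18 (SE 0.113, adjusted p = 2.69e-05), and its fold of 4.53, from a dim level in the control flasks, became 2.83 with 50 added. S100A10, a partner of annexin that binds plasminogen, changed by -0.91 (SE 0.121, adjusted p = 0.0012).

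**Figure D4:**
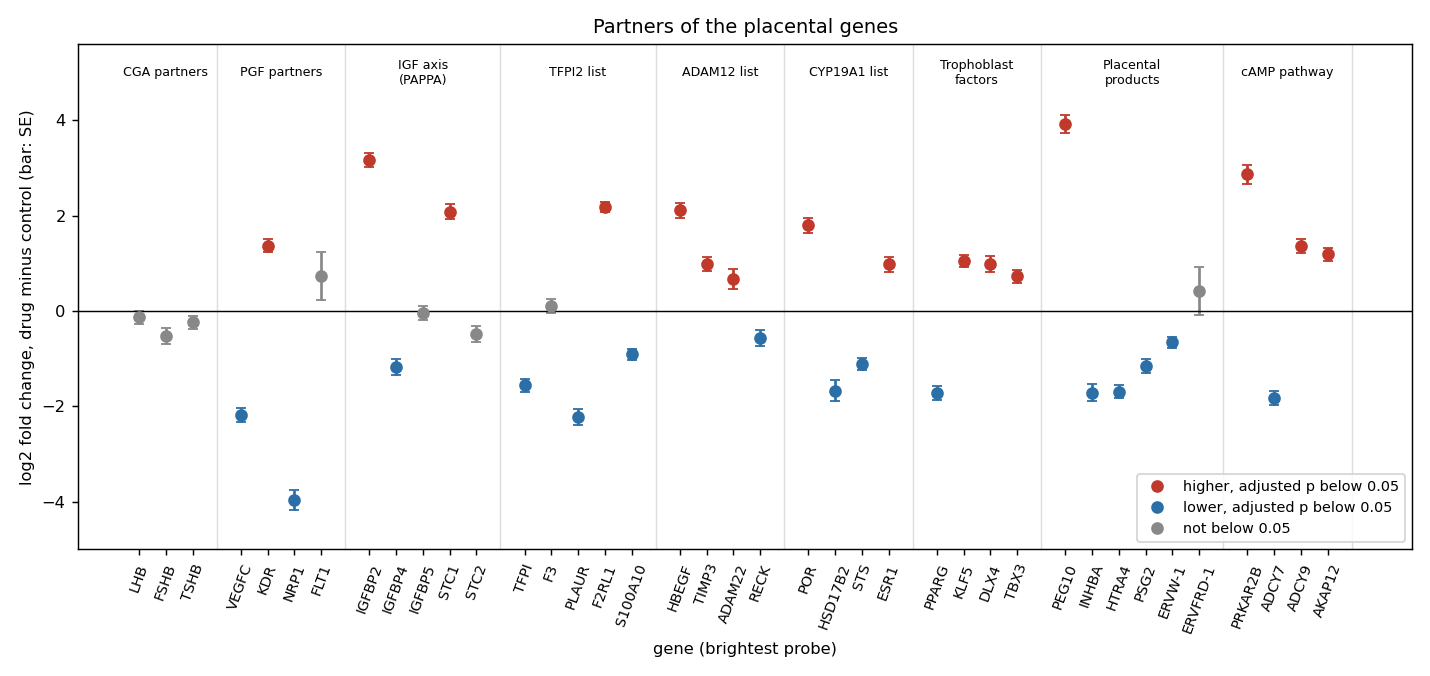
Log2 fold change of the drug over the control flasks, with its SE, for the named genes of each list, from their brightest probes in 3 flasks per group. The beta chains LHB, FSHB and TSHB lie at or below 0, and PEG10 at 3.93 and NRP1 at -3.97 lie furthest apart.

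Around ADAM12, 5 of 17 genes were called, 4 up and 1 down (5 and 0 with the values as deposited). That share was 29.4%, against 35.1% of all genes, and the median log2 fold change was 0.057. HBEGF, the heparin-binding growth factor that ADAM12 sheds, rose, with 6220, 6094 and 8137 in the drug flasks, against 1911, 1689 and 1307 in the control flasks (log2 fold change 2.11, SE 0.154, adjusted p = 9.16e-05). TIMP3, an inhibitor of metalloproteases, rose by 0.99 (SE 0.15, adjusted p = 0.00212). ADAM22, a family member without protease activity, gave 0.67 (adjusted p = 0.0451) on its brighter probe and -0.53 (adjusted p = 0.112) on the other, dim in both groups, and RECK, a membrane inhibitor of metalloproteases, -0.56 (adjusted p = 0.0377). Both were called by a narrow margin: ADAM22 was lost without any 1 of the 6 arrays (adjusted p from 0.0533 to 0.148) and RECK without any array but drug 1 (adjusted p from 0.0683 to 0.0982). The count of called genes was 3 without control 5, drug 1 or drug 4, and 2 without drug 3.

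Around CYP19A1, 6 of 21 genes of steroid synthesis and oestrogen reception were called, 4 up and 2 down (28.6%, against 35.1% of all genes). The median log2 fold change of the list was 0.17. POR, which passes electrons to aromatase and other microsomal cytochromes, rose, with 5917, 5335 and 4765 in the drug flasks, against 1467, 1608 and 1613 in the control flasks (log2 fold change 1.80, SE 0.16, adjusted p = 0.000201). HSD17B2, which oxidises oestradiol, changed by -1.67 (SE 0.216, adjusted p = 0.00103), and STS, the steroid sulfatase, by -1.11 (SE 0.128, adjusted p = 0.000619). ESR1, the oestrogen receptor, dim in the control flasks, rose by 0.98 (SE 0.162, adjusted p = 0.00314).

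Of 24 trophoblast transcription factors, 4 rose and 1 fell (20.8%, against 35.1% of all genes), with a median log2 fold change of 0.083. PPARG, a nuclear receptor needed for placental development in mice, had 279, 289.9 and 307 in the drug flasks, against 972, 1033 and 725 in the control flasks (log2 fold change -1.72, SE 0.147, adjusted p = 0.000177). KLF5 rose by 1.05 (SE 0.128, adjusted p = 0.00079), DLX4, a homeobox factor, by 0.99 (SE 0.166, adjusted p = 0.00331), and TBX3, a T-box factor, by 0.73 (SE 0.136, adjusted p = 0.00535). EOMES, a T-box factor dim in both groups, rose by 0.41 (adjusted p = 0.0465) but lost its call in 11 of 12 alternatives. TFAP2C, an AP-2 factor of the trophoblast lineage, gave 0.42 (SE 0.14, adjusted p = 0.0586), with all drug flasks above all control flasks. It was called with 16 or 50 added, with dim probes left out and with the variance trend. The other 18 factors were not called, among them GATA3 at 0.18, TFAP2A at 0.083, ELF5 at 0.022 and CDX2, dim in both groups, at 0.31. TP63, also among them, gave -0.042 on its brighter probe, but its other probe was called, at 0.65 (adjusted p = 0.00279).

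Of 36 placental products and fusion genes, 4 rose and 7 fell (2 and 7 with median centring), which is 30.6%, against 35.1% of all genes, with a median log2 fold change of -0.028. PEG10, an imprinted gene derived from a retrotransposon and needed for the placenta in mice, had 38096, 29821 and 49543 in the drug flasks, against 2846, 2348 and 2671 in the control flasks. It rose by 3.93 (SE 0.19, adjusted p = 2.3e-05), or 15.2-fold, while its other probe gave 0.51 (adjusted p = 0.282). KISS1, TAC3 and ISM2 were the others that rose, by 0.95, 0.85 and 0.56, the last pair dim in both groups. INHBA, a chain of activin, changed by -1.71 (SE 0.179, adjusted p = 0.000406), and HTRA4, a placental serine protease, by -1.69 (SE 0.132, adjusted p = 0.000117). Of the pregnancy-specific glycoproteins, PSG2, PSG1 and PSG5 fell, by 1.15, 1.00 and 0.69 on the log2 scale, and PSG6 gave -0.09, but these genes are close copies and a probe for 1 may read another.

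ERVW-1, the gene of syncytin, a retroviral envelope protein that fuses trophoblast cells, had 512, 483 and 578 in the drug flasks, against 803, 743 and 797 in the control flasks. It fell by 0.66 on the log2 scale (SE 0.114, adjusted p = 0.00386). ERVFRD-1, the related fusion gene and a known target of GCM1, gave 0.42 (SE 0.512, adjusted p = 0.629), with control 2 far above the other control flasks at 863, against 166 and 212. Without control 2 it was called, at 1.06 (adjusted p = 0.0139).

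Genes that act upstream of the cyclic AMP response element were read as a list of 33, of which 7 rose and 5 fell (4 and 7 with median centring). In all 36.4% were called, against 35.1% of all genes, and the median log2 fold change was 0.084. PRKAR2B, a regulatory subunit of protein kinase A, had 7135, 7045 and 5205 in the drug flasks, against 803, 953 and 922 in the control flasks (log2 fold change 2.87, SE 0.201, adjusted p = 7.96e-05). Of the adenylyl cyclases, ADCY9 rose by 1.36 (SE 0.143, adjusted p = 0.000425) and ADCY7 changed by -1.82 (SE 0.153, adjusted p = 0.000164). AKAP12, which anchors protein kinase A, rose by 1.19 (SE 0.138, adjusted p = 0.000626), and by 0.62 on its other probe, which did not pass. CREB1 itself gave 0.16 (SE 0.122, adjusted p = 0.421). On their brightest probes CREBBP, EP300 and PRKACB were not called, at -0.29, 0.021 and 0.36. Other probes of these genes were called, at -1.5 for CREBBP, -0.74 for EP300, and 0.59 and 0.77 for PRKACB (adjusted p from 0.000231 to 0.0404). With the median of a gene's probes, 15 genes of the list were called, 8 up and 7 down.

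Genes whose own window holds TGACGTCA, the 8 genes left out, numbered 342 on the array. Of these, 24.0% rose and 22.8% fell, against 17.8% and 18.3% of all 14632 genes with a window (36.2% called), and the median log2 fold change was 0.026 against 0.005. Among the 10 genes with 2 or more such elements, as in CGA, 4 rose and 1 fell. ARG2, an arginase of mitochondria, had the largest rise of these, 4.04 (adjusted p = 1.61e-05), and was named after its value was seen. No test of these shares was made.

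The genes beside the 8 on their chromosomes were read to see whether neighbours moved with them. Of 48 neighbours, the 3 nearest measured protein-coding genes on each side, 7 rose and 9 fell (5 and 10 with median centring), which is 33.3%, against 35.1% of all genes. On chromosome 6 CGA lay between genes that did not share its rise: on its sides, HTR1E, dim in both groups, gave 0.064 (adjusted p = 0.842) and ZNF292, a zinc finger gene, fell by 0.78 on the log2 scale (adjusted p = 0.0056). Further out SYNCRIP, an RNA-binding protein, changed by -0.80 and SMIM8, dim in the control flasks, rose by 1.68 (adjusted p = 0.0101 and 0.000297). Of the 6 neighbours of PAPPA on chromosome 9, 0 were called by limma and 2 had an unadjusted p below 0.05, both with a positive difference (TNC at 0.43 and ASTN2 at 0.31).

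**Figure D5:**
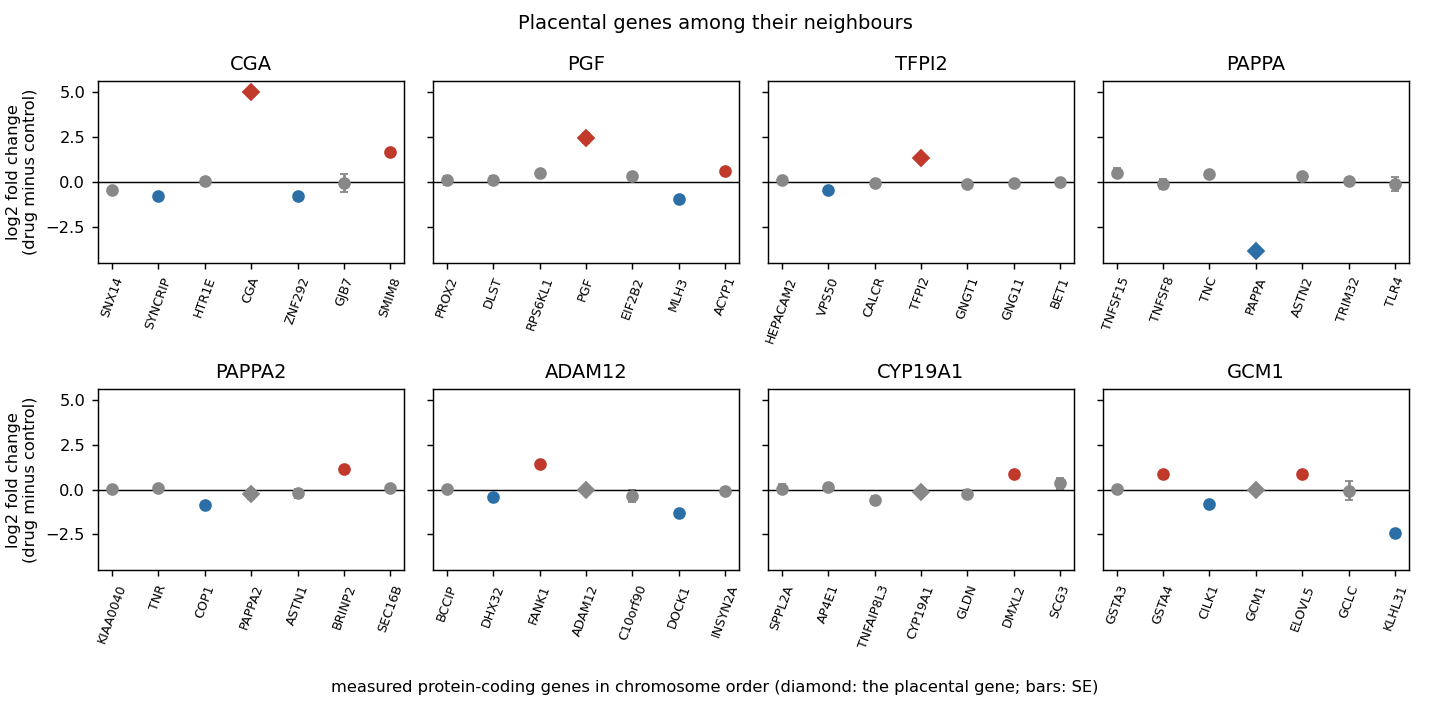
Log2 fold change of the drug over the control flasks, with its SE where it exceeds the symbol, for each placental gene (diamond) and the 3 nearest measured protein-coding genes on each side in chromosome order. Red is higher and blue lower at an adjusted p below 0.05, and CGA at 5.03 and PAPPA at -3.89 stand apart from their neighbours in size.

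Beside PGF, on chromosome 14, MLH3, a mismatch repair gene, changed by -0.96 and ACYP1 by 0.59, and beside TFPI2, on chromosome 7, VPS50 by -0.45 (adjusted p = 0.000607, 0.0372 and 0.0281). Beside the genes that differed little, called neighbours were COP1 at -0.86 and BRINP2, dim in both groups, at 1.14 for PAPPA2, DHX32 at -0.42, FANK1 at 1.42 and DOCK1 at -1.30 for ADAM12, DMXL2 at 0.88 for CYP19A1, and GSTA4 at 0.87, CILK1 at -0.81, ELOVL5 at 0.88 and KLHL31 at -2.43 for GCM1. ACYP1, VPS50 and DHX32 lost their calls in most fits that left out 1 array (adjusted p from 0.0506 to 0.107 where lost). BRINP2 gave 0.48 with 50 added and lost its call with median centring (adjusted p = 0.147) and with the values as deposited (adjusted p = 0.13).

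The genes most like each placental gene were those with the smallest root mean square distance between centred log2 profiles over the 6 arrays. For CGA these were IFI30, a lysosomal thiol reductase, at 0.113, SYT11, a synaptotagmin, at 0.152, and NCAM1, a neural adhesion molecule, at 0.261. For PGF they were SGTB, VMP1 and HYCC1, at 0.135, 0.158 and 0.171, and for TFPI2 GEM, CITED1 and PTPRN2, at 0.0531, 0.0557 and 0.0621. For PAPPA they were NRP1, ZMYND8 and AMIGO2, at 0.14, 0.169 and 0.183, so that NRP1, described above as a receptor of PGF, followed the profile of PAPPA, with a difference of the opposite sign to PGF. Their Pearson correlations ran from 0.991 to 0.999 over 6 arrays, but these points fall into 2 groups of 3, so a gene with a like difference between groups has a high correlation whatever its flasks do.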

How the data were processed

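RNA from 3 drug and 3 control flasks was hybridised to single-colour arrays after Trizol extraction, amplification and Cy5 labelling, per the labels' protocols. The files the authors deposited hold linear intensities, some of them below 0. No source used here states the authors' background correction or scaling. Arrays were quantile normalized, negative values were raised to 0, and log2(value + 1) was computed. A group mean under 6.86, the lower quartile, is called dim. Probe names came from the platform annotation: 24740 probes named 1 gene, 977 several and 6024 none, and symbols were updated through RefSeq (GRCh38.p14). A gene is read from its brightest probe. The comparison used limma 3.58.1 (R 4.3.3, lmFit and eBayes, two-sided), with Benjamini-Hochberg adjustment over 31741 probes, and checked on simulated data. The labels describe separate flasks, so p-values rest on the spread between flasks, and 3 arrays per group limit the precision.

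The members and lists were chosen with earlier results of these data known. Named were the 8 genes, up to 4 called genes per list with the largest change, 14 direct partners, called neighbours and the 3 most alike genes of each called member. YAP1, NEUROD1, COL1A1, CD14, ENO2, SYP, CHGB, UCHL1, TFAP2C, GATA3, TFAP2A, ELF5, CDX2, TP63, KISS1, TAC3, ISM2, PSG1, PSG5, PSG6, CREB1, CREBBP, EP300, PRKACB, ARG2, HTR1E, TNC, ASTN2, INSR, IGFBP6, IGF1, IGF2R, IRS2, EOMES, VEGFA, VEGFB and the CGB probes fall outside this rule and were picked once their values had been seen. Promoter windows came from RefSeq. The alternatives were the values as deposited, median centring, 50 or 16 added, dim probes left out, a variance trend with a robust prior, each array left out, the median of a gene's probes, and, added after seeing the data, control 2 and drug 4 both left out.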

Additional observations from a re-analysis of the deposited data

How the results depend on the processing

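The count of changed probes ran from 7737 to 9532 with 1 array left out, against 10012, and that of changed genes from 5050.0 to 6153, against 6438. Quantile normalization put the median log2 fold change of all genes at 0.0075, where the values as deposited gave 0.20 and median centring 0.074, so changes are relative to that shift. Of 178 values of the 14 probes under alternatives, 163 moved by less than 1 SD and 0 called values changed sign: CGA ran from 4.75 to 5.13, PGF from 1.91 to 2.64, TFPI2 from 1.21 to 1.42 and from 1.67 to 2.11, and PAPPA from -4.07 to -3.79 and from -2.26 to -1.90. The dim PAPPA2 probe went to 3.05 with the values as deposited, where values below 0 were set to 0. In the glycoprotein hormone list 1 gene, FSHB, was called with 16 or 50 added, with dim probes left out and with the variance trend, and 2 without both control 2 and drug 4. The VEGF list had 5 called genes with the median of a gene's probes, and the ADAM list 2 without both control 2 and drug 4. With 1 array left out, the lists had from 0 to 1 (glycoprotein hormones), 4 to 4 (trophoblast factors), 11 to 12 (placental products), 3 to 5 (VEGF), 3 to 7 (IGF), 6 to 7 (tissue factor), 2 to 4 (ADAM), 6 to 6 (steroid) and 10 to 11 (cyclic AMP) called genes, and neighbours from 13 to 18. Of 867 values of 67 named genes, 44 lost and 12 gained a call. Differences that were not called changed sign for F3 (-0.082 with median centring, -0.011 without drug 1, and from -0.011 to 0.23 over single arrays left out), TSHB (0.26 with median centring, 0.39 as deposited) and IGFBP5 (0.03 with median centring, 0.16 as deposited, 0.057 without control 6, 0.041 without drug 3, and from -0.13 to 0.057 over single arrays left out). The cause of these moves was not tested. No paired analysis was possible because the drug and control flasks share no replicate numbers. Dim probes, near the background, limit what can be read from low genes.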
